A study of Homo sapiens with 6 samples.

Results

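The SOCS and PIM genes and PTPN2 act in the feedback on cytokine signalling, and their expression was followed after knockdown of the histone methyltransferase gene EZH2 in B-cell lymphoma. The set was SOCS1, SOCS2, SOCS3, CISH, PIM1, PIM2 and PTPN2, and every probe set annotated with one of these symbols and no other was taken. This gave 7 of 19775 genes and 23 of 41091 single-gene probe sets. A filter on dim signal kept 16 of the 23, from 6 genes, and SOCS2 had no probe set that passed.

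RNA was measured on 6 Affymetrix U133 Plus 2.0 arrays of KARPAS-422 and Pfeiffer, established human lines derived from diffuse large B-cell lymphoma, which arises from mature B cells. The groups were KARPAS-422 with a short hairpin RNA against EZH2 (shEZH2, 2 arrays), KARPAS-422 with a non-targeting hairpin (shNTC, 2 arrays), Pfeiffer with shEZH2 (1 array) and Pfeiffer with shNTC (1 array). Cells of all groups received lentivirus in medium with polybrene at 8 µg/ml and serum at 10%, were selected with puromycin at 1 µg/ml after 2 days, and were labelled as day 10. The control virus carried a hairpin against a non-mammalian sequence, and each arm rested on a single hairpin, so effects of the EZH2 hairpin on other transcripts cannot be told apart from those of EZH2 loss. The labels call the KARPAS-422 arrays biological replicates without saying whether they came from separate infections, so p-values measure the spread between these arrays only. The EZH2 hairpin is shown because it defines the knockdown arm. Its sense stem is in capitals, 5′ to 3′.
shEZH2: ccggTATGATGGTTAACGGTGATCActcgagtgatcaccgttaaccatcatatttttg

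Cytokine receptors lack a kinase of their own and use JAK kinases, which phosphorylate STAT transcription factors that then enter the nucleus. Among the STAT target genes are those of the SOCS family, whose proteins bind receptors or JAKs and recruit a ubiquitin ligase through their SOCS box, which closes a negative feedback loop. PTPN2 is a tyrosine phosphatase that removes phosphate from JAKs and STATs, and the PIM serine/threonine kinases, also induced by STATs, promote survival and growth and are known as targets of somatic hypermutation (PIM1) in this lymphoma.

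EZH2 itself, read by 1 probe set, had a log2 signal of 10.52 and 10.55 on the shEZH2 arrays of KARPAS-422, against 11.71 and 11.57 on its shNTC arrays. In Pfeiffer it was 10.23 with shEZH2 and 11.65 with shNTC. Thus 46.3% of the control level was left in KARPAS-422 (limma, adjusted p = 0.000773) and 37.6% in Pfeiffer. The B-cell genes MS4A1 and PAX5 had log2 signals of 12.60 or higher on all 6 arrays, whereas the B-cell factor gene EBF1 was dim in Pfeiffer, at 6.01 with shEZH2 and 6.02 with shNTC. CD79A and CD22 were also lower in Pfeiffer, at 9.13 and 7.84 with shEZH2 and 8.17 and 8.25 with shNTC. Both read 10.81 or higher in KARPAS-422. CD79B was higher in Pfeiffer, at 13.55 and 13.98, and in KARPAS-422 rose by 0.39 with shEZH2 (SE 0.09, limma adjusted p = 0.0168). The epithelial gene EPCAM was bright in Pfeiffer, at 12.98 with shEZH2 and 13.33 with shNTC, and the fibroblast gene DCN in KARPAS-422, between 13.43 and 13.71. The other measured genes of their list were not as bright. In Pfeiffer KRT8 read 6.99 and KRT18 8.54 with shEZH2, against 7.21 and 8.67 with shNTC. In KARPAS-422 COL1A1 read between 8.28 and 8.44, below its 8.87 and 8.81 in Pfeiffer, and COL1A2 between 2.99 and 6.31. The T-cell genes CD3D and CD3G were bright in KARPAS-422, between 10.53 and 12.08, and dim in Pfeiffer, at 5.86 or lower. Both fell with shEZH2 in KARPAS-422, CD3D by 0.77 and CD3G by 0.64, while the third measured gene of that list, CD3E, did not pass. Of the 8 myeloid marker genes, 2 passed the filter, at log2 signals up to 6.71, and neither changed by the test. The summed linear signal of the 3 measured genes of the T and NK cell list, CD3D, CD3E and CD3G, was 4308 and 3855 with shEZH2 in KARPAS-422. With shNTC it was 6249 and 6861, and no NK cell marker was in the sum. The part of these shifts in the results below was not tested. The 3′ minus 5′ log2 signal of the ACTB control probe sets was 0.138 and 0.175 with shEZH2 and 0.0593 and 0.0830 with shNTC in KARPAS-422. For GAPDH it was -0.169 and -0.241 with shEZH2 and -0.182 and -0.158 with shNTC, so that the arms overlapped on that control. The part of the ACTB difference in the results was not tested either.

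In KARPAS-422, SOCS1 rose 7.14-fold with shEZH2 and PIM1 fell to 56.0% of its control level, while SOCS3, CISH, PIM2 and PTPN2 did not pass the test. A gene was called where limma's p-value, adjusted by the Benjamini-Hochberg method over all 13036 genes tested, was under 0.05, and the probe set with the brightest mean signal among those kept stood for its gene. Of the 6 genes measured, 1 was called higher and 1 lower, against 13.1% higher and 12.3% lower among all genes tested (25.4% in either direction). The median log2 difference, shEZH2 minus shNTC, was -0.10 over the 6 genes and -0.02 over all genes. The count of called genes in each direction was thus near the background share. Array signals come from bulk RNA, where fewer cells of a kind and less RNA per cell cannot be told apart.

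**Figure D1:**
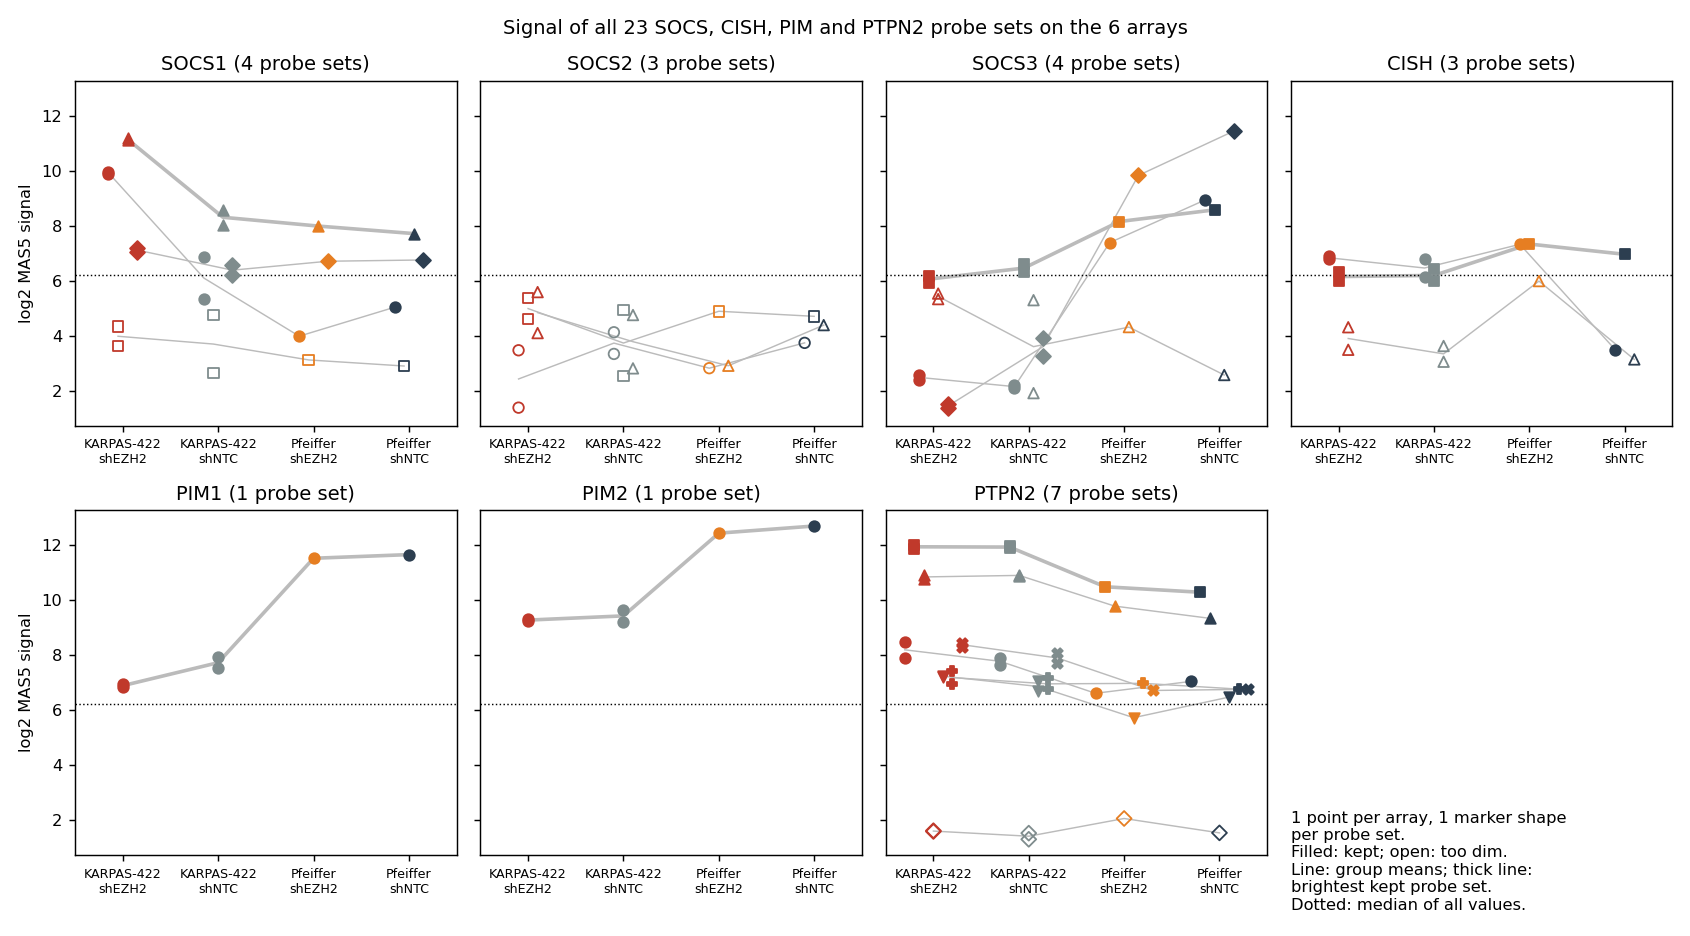
Log2 MAS5 signal (vertical axis) of all 23 probe sets of the 7 genes on the 6 arrays, by line and hairpin, with 1 point per array, filled where the probe set passed the filter, and lines through group means (thick for the brightest kept probe set; dotted, the median of all values, 6.21). The bright SOCS1 probe sets stand highest in KARPAS-422 with shEZH2, whereas PIM1, PIM2 and SOCS3 stand highest in Pfeiffer.

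SOCS1 encodes an inhibitor that binds JAKs directly and is a main brake on interferon and interleukin 4 signalling. Its brightest probe set, 210001_s_at, read 11.11 and 11.19 (log2 signal) in KARPAS-422 with shEZH2, against 8.59 and 8.04 with shNTC. The same probe set read 7.99 with shEZH2 and 7.72 with shNTC in Pfeiffer. Both KARPAS-422 shEZH2 arrays lay well above the other 4 arrays, which lay close together. The KARPAS-422 means were 11.15 ± 0.06 with shEZH2 and 8.31 ± 0.39 with shNTC (SD, n = 2 each), a log2 difference of 2.84 (SE 0.20, limma adjusted p = 0.000261). In Pfeiffer the difference was 0.27 with 1 array per arm, and no test was made within that line. The difference between the lines in the response was itself called, at 2.56 (SE 0.34, limma adjusted p = 0.0172), where 1 of the 6 genes was called higher against 1.25% of all genes tested (1.7% in either direction). This test assumes that Pfeiffer arrays vary like those of KARPAS-422. Without shEZH2 replicate 1 or 2 of KARPAS-422 the line difference stayed at 2.60 or 2.52, but its adjusted p was 0.175 in both cases.

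Other SOCS1 probe sets differed in brightness and in the size of the change. Probe set 209999_x_at, of a type that can hybridise to related transcripts, read 9.96 and 9.89 with shEZH2 and 6.88 and 5.33 with shNTC in KARPAS-422. Its difference of 3.82 was called (SE 0.49, adjusted p = 0.00351 over 25186 probe sets). It exceeded the median of all values on 3 arrays only, both shEZH2 arrays and shNTC replicate 1 of KARPAS-422. It thus passed the filter with the help of the arm where it was high, and some difference was built into its selection. In Pfeiffer it read 3.99 with shEZH2 and 5.04 with shNTC, a difference of -1.05 in dim signal. The third kept probe set, 213337_s_at, read 7.06 and 7.19 with shEZH2, against 6.21 and 6.57 with shNTC. It too separated the KARPAS-422 arms, but its difference of 0.73 did not pass (adjusted p = 0.108), and in Pfeiffer it read 6.71 with shEZH2 and 6.76 with shNTC. The fourth, 210000_s_at, was too dim on all 6 arrays, between 2.65 and 4.76, and its KARPAS-422 arms overlapped. Thus all 3 kept probe sets were higher on each KARPAS-422 shEZH2 array than on either shNTC array, and 2 of the 3 were called. Over all kept probe sets, the arms did not overlap, in either direction, on 64.2%, and 12.4% were called higher.

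SOCS3 encodes the inhibitor best known for its action on the interleukin 6 receptor subunit gp130 and on STAT3 signalling. Its brightest probe set, 206360_s_at, had a log2 signal of 5.94 and 6.18 with shEZH2 and 6.60 and 6.33 with shNTC in KARPAS-422. In Pfeiffer it read 8.16 with shEZH2 and 8.58 with shNTC. Both shEZH2 arrays lay below both shNTC arrays in KARPAS-422, but the difference of -0.40 did not pass (SE 0.27, limma adjusted p = 0.313), and the Pfeiffer difference was -0.43. Probe set 227697_at read 1.52 and 1.38 with shEZH2 and 3.94 and 3.28 with shNTC in KARPAS-422, against 9.83 with shEZH2 and 11.45 with shNTC in Pfeiffer. It was bright in Pfeiffer and far below the median of all signals in KARPAS-422. Its KARPAS-422 difference of -2.16 was called (SE 0.55, adjusted p = 0.0327), although at signals where MAS5 values spread widely, and in Pfeiffer its signal with shEZH2 was 32.7% of that with shNTC. Probe set 206359_at read 2.58 and 2.41 with shEZH2 and 2.22 and 2.09 with shNTC in KARPAS-422, and 7.39 with shEZH2 and 8.94 with shNTC in Pfeiffer. These last probe sets passed the filter through the Pfeiffer arrays alone. The fourth, 214105_at, stayed under the filter, between 1.92 and 5.54. In that dim signal it was higher with shEZH2 in both lines, by 1.83 in KARPAS-422 and 1.74 in Pfeiffer. All 3 kept SOCS3 probe sets read lower with shEZH2 in Pfeiffer, with log2 differences of -0.43, -1.55 and -1.61, which rest on 1 array per arm.

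CISH encodes the founding member of the family, a STAT5 target that acts on receptors which use STAT5. Its brightest probe set, 223377_x_at, read 6.01 and 6.31 with shEZH2 and 5.98 and 6.41 with shNTC in KARPAS-422, and 7.34 with shEZH2 and 6.97 with shNTC in Pfeiffer. The KARPAS-422 arms overlapped, and the difference of -0.04 did not pass (SE 0.34, limma adjusted p = 0.945). Probe set 221223_x_at read 6.89 and 6.79 with shEZH2 and 6.16 and 6.78 with shNTC in KARPAS-422, a difference of 0.37 that did not pass (adjusted p = 0.504). On the Pfeiffer arrays it read 7.33 with shEZH2 and 3.50 with shNTC. The Pfeiffer shNTC array was thus the lowest of the 6 on that probe set, and the Pfeiffer difference was 3.83 there but 0.37 on the brightest one. The dim probe set 223961_s_at read 5.99 with shEZH2 and 3.15 with shNTC in Pfeiffer, and between 3.06 and 4.32 in KARPAS-422. The CISH probe sets thus disagreed in Pfeiffer, where each arm had 1 array and no test was made.

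SOCS2, which encodes a regulator of growth hormone signalling, could not be followed. Its 3 probe sets read between 1.39 and 5.59, and none exceeded the median of all signals on any array. In KARPAS-422, probe set 203373_at read 5.38 and 4.61 with shEZH2 and 4.94 and 2.54 with shNTC, 203372_s_at 1.39 and 3.48 with shEZH2 and 3.35 and 4.13 with shNTC, and 232539_at 5.59 and 4.10 with shEZH2 and 2.82 and 4.76 with shNTC. The arms overlapped on each.

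PTPN2 encodes T-cell protein tyrosine phosphatase, which acts on JAK1, JAK3 and several STATs. Its brightest probe set, 213136_at, read 11.87 and 12.01 with shEZH2 and 11.90 and 11.96 with shNTC in KARPAS-422. In Pfeiffer it read 10.49 with shEZH2 and 10.29 with shNTC. The KARPAS-422 arms overlapped, and the difference of 0.01 had a small standard error (SE 0.10, limma adjusted p = 0.95). The KARPAS-422 arms did not overlap, in either direction, on 64.2% of all kept probe sets. Of 6 kept PTPN2 probe sets, 3 were higher on both KARPAS-422 shEZH2 arrays than on either shNTC array and 3 overlapped. None was called, with limma adjusted p from 0.149 to 0.952, and the smallest unadjusted p was 0.0578, for 243410_at. That probe set read 8.31 and 8.46 with shEZH2 and 7.73 and 8.07 with shNTC in KARPAS-422. The seventh, 241622_at, was too dim, between 1.31 and 2.07 on all 6 arrays.

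PIM1, the serine/threonine kinase gene first found as a proviral integration site in mouse lymphoma, was read by 1 probe set, 209193_at. Its log2 signal was 6.94 and 6.84 with shEZH2 and 7.93 and 7.53 with shNTC in KARPAS-422. In Pfeiffer it was 11.52 with shEZH2 and 11.66 with shNTC. Both KARPAS-422 shEZH2 arrays lay below both shNTC arrays, and all KARPAS-422 arrays lay far below Pfeiffer. The KARPAS-422 means were 6.89 ± 0.07 with shEZH2 and 7.73 ± 0.28 with shNTC (SD, n = 2 each), so that PIM1 fell by 0.84 (SE 0.18, limma adjusted p = 0.0159). Leaving out shEZH2 replicate 1 gave -0.89 (adjusted p = 0.0784), leaving out replicate 2 gave -0.79 (adjusted p = 0.1), and a variance model with no intensity trend gave an adjusted p of 0.0742, none of which passed. In Pfeiffer the signal with shEZH2 was 91.1% of that with shNTC, and the difference between the lines in the response, -0.70, did not pass (SE 0.31, limma adjusted p = 0.307).

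PIM2, a related kinase gene with roles in the survival of B cells and plasma cells, read 9.25 and 9.31 with shEZH2 and 9.21 and 9.65 with shNTC in KARPAS-422 on its probe set 204269_at. It read 12.44 with shEZH2 and 12.69 with shNTC in Pfeiffer. The KARPAS-422 arms overlapped, and the difference of -0.15 did not pass (SE 0.16, limma adjusted p = 0.512). The Pfeiffer difference was -0.26. The third kinase gene of the family, PIM3, read 10.67 and 10.66 with shEZH2 and 10.46 and 10.76 with shNTC in KARPAS-422, with a difference of 0.05 that did not pass (limma adjusted p = 0.786).

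Over the 16 kept probe sets, from 6 genes, 4 were called in KARPAS-422, 2 of SOCS1 higher and 1 each of SOCS3 and PIM1 lower, against 21.5% of all probe sets tested (12.4% higher, 9.1% lower). Of the called ones, 209999_x_at of SOCS1 passed the filter with the help of the arm where it was high. The called SOCS3 probe set, 227697_at, passed through the Pfeiffer arrays alone and was dim in KARPAS-422. The KARPAS-422 arms did not overlap on 11 of the 16, or 68.8%, against 64.2% of all kept probe sets, so this share is near the background. In Pfeiffer 4 of the 16 differed by more than 1 log2 unit, 1 higher and 3 lower, against 5.07% of all probe sets (3.53% higher, 1.55% lower). These were 221223_x_at of CISH, 209999_x_at of SOCS1, and 206359_at and 227697_at of SOCS3. On the brightest probe sets 0 of the 6 genes differed that much in Pfeiffer, against 4.71% of all genes. Replicate arrays of one KARPAS-422 group differed by more than 1 unit for 4.36% of genes (shEZH2) and 5.99% (shNTC), so Pfeiffer differences of that size are about as common as those between replicates.

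**Figure D2:**
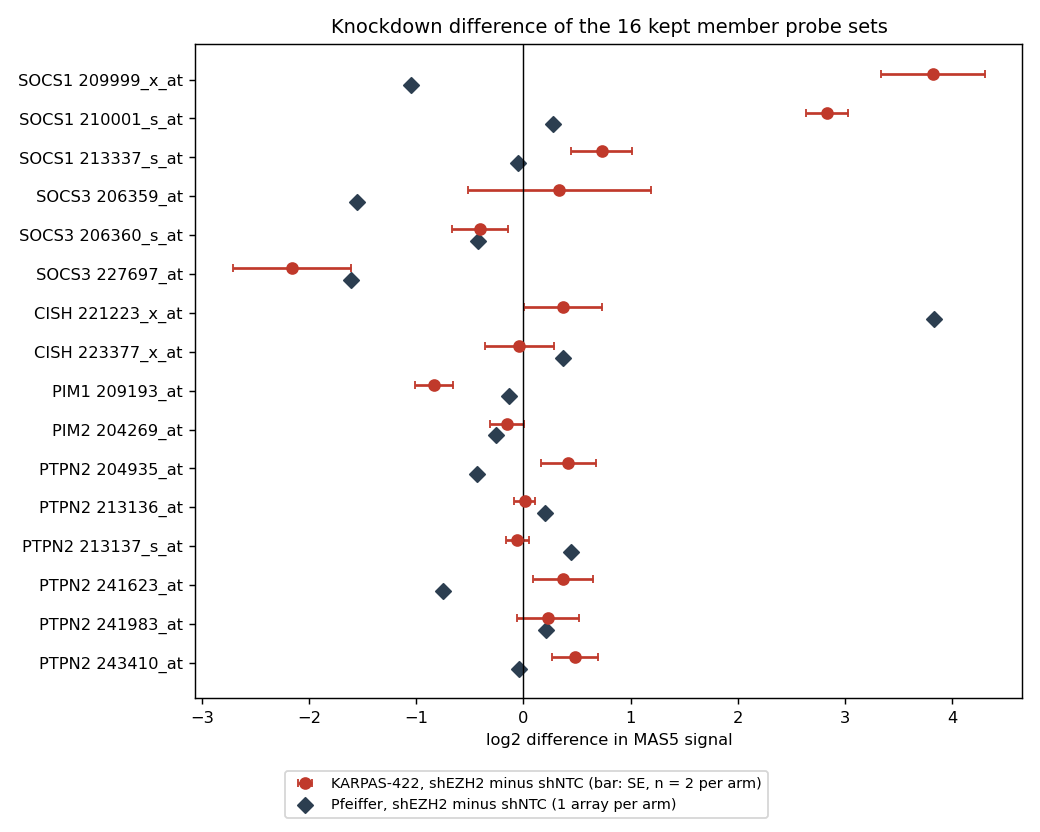
Log2 difference in signal, shEZH2 minus shNTC (horizontal axis), for the 16 kept probe sets, with KARPAS-422 as circles (bars, SE of the limma fit, n = 2 per arm) and Pfeiffer as diamonds (1 array per arm, no error). The SOCS1 probe sets lie right of 0 in KARPAS-422, at 0.73, 2.84 and 3.82, and probe sets of CISH and SOCS3 disagree with each other in size.

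Over both lines, with a term for the line, SOCS1 was the one gene of the 6 called, at 1.98 (SE 0.47, limma adjusted p = 0.0494), against 3.76% of all genes called higher and 6.22% in either direction. That value averages a difference of 2.84 in KARPAS-422 and 0.27 in Pfeiffer. The call was lost without any one KARPAS-422 array, at adjusted p from 0.151 to 0.214, and with the replicate number as a block (adjusted p = 0.102).

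Profiles over the 6 arrays were compared by root mean square distance between mean-centred log2 signals. Immunoglobulin segments and genes with provisional or class symbols, such as LOC, LINC, KIAA and FAM, were passed over. Of the remaining genes, the 2 nearest to SOCS1 were DHRS9 at 0.17 and FCRL3 at 0.19, against a median of 1.54 over all genes. DHRS9 differed by 2.81 in KARPAS-422 and by 0.25 in Pfeiffer. For PIM1 the nearest were PITPNC1 at 0.11 and DAPL1 at 0.16, against a median of 2.04. DAPL1 was dim in KARPAS-422, between 2.30 and 3.21, where MAS5 values spread widely. These distances describe 6 arrays of 2 lines and carry no test.

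The 250 bases before the RefSeq start of SOCS1, SOCS3, CISH and PIM1 are shown because these are the genes with a called probe set and, for CISH, a cluster of STAT motifs. They come from RefSeq (GRCh38.p14), are written 5′ to 3′ on the strand of the gene, and have in capitals each match, on either strand, to TTCNNNGAA, the STAT core, or to GAAA and GAAA with 2 bases between them, the core of an interferon-stimulated response element. SOCS1 lies at chr16:11256205-11256454 (minus strand), SOCS3 at chr17:78360926-78361175 (minus), CISH at chr3:50611775-50612024 (minus) and PIM1 at chr6:37169902-37170151 (plus).
SOCS1: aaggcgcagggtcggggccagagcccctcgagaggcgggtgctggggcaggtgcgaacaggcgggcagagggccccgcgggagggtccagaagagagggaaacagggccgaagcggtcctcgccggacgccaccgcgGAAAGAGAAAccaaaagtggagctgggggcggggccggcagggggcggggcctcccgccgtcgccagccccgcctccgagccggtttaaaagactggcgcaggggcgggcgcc
CISH: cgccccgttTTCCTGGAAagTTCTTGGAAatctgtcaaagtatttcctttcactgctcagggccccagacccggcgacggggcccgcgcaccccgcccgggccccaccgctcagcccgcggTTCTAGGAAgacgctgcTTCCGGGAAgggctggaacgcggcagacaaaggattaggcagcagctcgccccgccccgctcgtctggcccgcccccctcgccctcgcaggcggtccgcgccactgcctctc
SOCS3: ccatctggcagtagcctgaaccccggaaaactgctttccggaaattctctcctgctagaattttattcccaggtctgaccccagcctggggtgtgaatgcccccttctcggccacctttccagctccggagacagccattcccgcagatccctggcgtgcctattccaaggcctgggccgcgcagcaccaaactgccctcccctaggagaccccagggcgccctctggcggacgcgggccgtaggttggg
PIM1: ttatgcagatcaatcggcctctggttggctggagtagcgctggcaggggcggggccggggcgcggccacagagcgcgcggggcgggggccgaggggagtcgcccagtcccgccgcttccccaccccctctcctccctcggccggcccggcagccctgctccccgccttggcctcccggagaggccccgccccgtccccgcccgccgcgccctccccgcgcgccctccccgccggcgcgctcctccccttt

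The SOCS1 stretch held 1 match to the GAAA repeat, GAAAGAGAAA, whose first base lay 113 bases before the start. Such a match was present in 3.02% of 34788 RefSeq promoters cut to the same length. The CISH stretch held 4 matches to TTCNNNGAA, which were TTCCTGGAA, TTCTTGGAA, TTCTAGGAA and TTCCGGGAA, at 241, 230, 129 and 112 bases before the start. At least 1 such match was present in 6.57% of promoters, and 4 or more in 5 of them. The SOCS3, PIM1 and PIM2 stretches held neither motif in this window. The spacing preferred by STAT6, TTC and GAA with 4 bases between them, was in none of the 5 stretches at a RefSeq start and in 5.36% of promoters. A second SOCS3 entry and the PTPN2 entry, which did not lie at the RefSeq start of the gene, held none of these motifs and are not shown. The motifs did not overlap one another. A match of letters does not show that a factor binds there.

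Between the lines in control cells, PIM1, PIM2 and SOCS3 were lower in KARPAS-422 and PTPN2 was higher. With shNTC, PIM1 read 7.93 and 7.53 (log2 signal) in KARPAS-422 and 11.66 in Pfeiffer. This was a difference, KARPAS-422 minus Pfeiffer, of -3.93 (SE 0.22, limma adjusted p = 1.21e-05), or a 15.2-fold higher signal in Pfeiffer. PIM2 differed by -3.27 (SE 0.19, limma adjusted p = 1.5e-05), 9.62-fold higher in Pfeiffer, and SOCS3 by -2.12 (SE 0.33, limma adjusted p = 0.00178), 4.34-fold higher in Pfeiffer. On its other kept probe sets the SOCS3 difference was -6.78 and -7.83, a description only, since both passed the filter through the Pfeiffer arrays alone and were far below the median of all signals in KARPAS-422. PTPN2 was 3.12-fold higher in KARPAS-422, at 1.64 (SE 0.12, limma adjusted p = 4.08e-05), and 3 of its 6 kept probe sets were called, all higher there, against 42% of all probe sets called in either direction. SOCS1 differed by 0.59 (SE 0.24, limma adjusted p = 0.0855) and CISH by -0.77 (SE 0.41, limma adjusted p = 0.174), and neither passed. The CISH probe sets went opposite ways, since 221223_x_at was higher in KARPAS-422 by 2.97 (adjusted p = 0.00176). In all, 1 of the 6 genes was called higher and 3 lower, against 21.7% and 22.5% of all genes (44.2% in either direction), and Pfeiffer was represented by 1 control array.

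**Figure D3:**
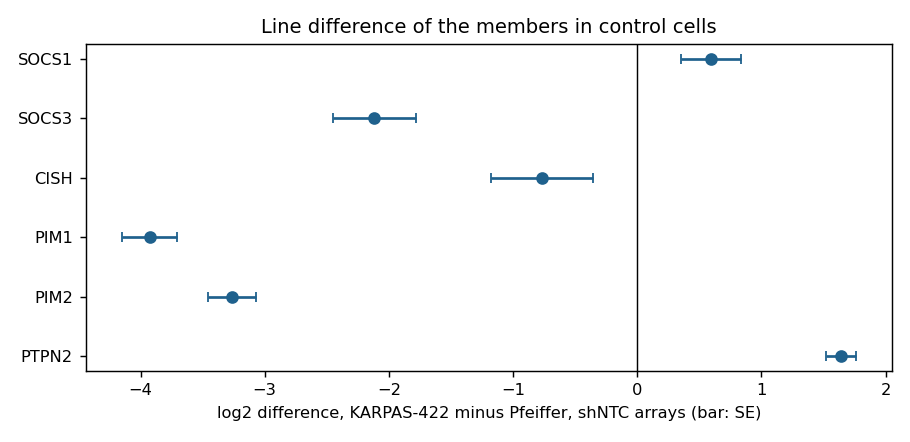
Log2 difference, KARPAS-422 minus Pfeiffer (horizontal axis), between shNTC arrays for the 6 measured genes on their brightest probe sets, with bars for the SE of the limma fit (2 KARPAS-422 arrays, 1 Pfeiffer array). PIM1, PIM2 and SOCS3 lie left of 0, between -3.93 and -2.12, and PTPN2 lies right of 0.

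The order of groups by signal differed from gene to gene. SOCS1 stood highest in KARPAS-422 with shEZH2, and its other 4 arrays lay between 7.72 and 8.59, where the shNTC arrays of the lines did not differ by the test. For PIM1 the order was Pfeiffer shNTC, Pfeiffer shEZH2, KARPAS-422 shNTC and KARPAS-422 shEZH2, with the Pfeiffer arms only 0.13 apart. PIM2 and SOCS3 had both Pfeiffer arrays above all KARPAS-422 arrays, and PTPN2 had them below.

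Around the feedback genes, USP18 and STAT3 rose with shEZH2 in KARPAS-422, and cytokine receptor genes were called in both directions. Counts of the pathway lists are read against the same 25.4% of all genes called. Of 6 measured cytokine genes, 1 rose and 1 fell. IFNB1, which encodes interferon beta, read 8.97 and 9.65 with shEZH2 and 1.92 and 3.61 with shNTC, and rose by 6.54 (SE 0.81, limma adjusted p = 0.00246). It passed the filter through the shEZH2 arrays of KARPAS-422 alone, so that some difference was built into its selection, and the size was set against control signals far below the median of all values. In Pfeiffer it read 2.35 with shEZH2 and 2.93 with shNTC. IL4, whose product signals through STAT6, fell by 3.38 (SE 0.62, limma adjusted p = 0.0092), but its signal in KARPAS-422 was 4.70 or lower. It was bright in Pfeiffer, at 9.81 with shEZH2 and 9.26 with shNTC. Without shEZH2 replicate 1 or 2 of KARPAS-422 the IFNB1 call was lost (adjusted p = 0.0515 and 0.0657), at differences of 6.88 and 6.21.

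Of 18 measured cytokine receptor genes, 4 rose and 2 fell in KARPAS-422, with a median difference of 0.13. The interleukin 10 receptor genes IL10RA and IL10RB rose by 1.13 (SE 0.12) and 0.86 (SE 0.15). The interferon receptor genes IFNAR1 and IFNGR1 rose by 0.66 (SE 0.17) and 0.51 (SE 0.10). The receptor genes IL4R and IL21R fell by 1.86 (SE 0.45) and 1.30 (SE 0.26), both from signals under or near the median of all values in KARPAS-422. In Pfeiffer IL10RA read 12.67 with shEZH2 and 11.73 with shNTC, a difference of 0.94, while the other 5 differed by -0.29 to 0.76. Leaving out either shEZH2 array of KARPAS-422 ended all these calls but that of IL10RA. Over the 4 left-out arrays the differences then ran from 0.68 to 1.04 for IL10RB (highest adjusted p = 0.0797), 0.51 to 0.81 for IFNAR1 (0.156), 0.47 to 0.55 for IFNGR1 (0.0761), -2.42 to -1.30 for IL4R (0.122) and -1.62 to -0.98 for IL21R (0.0948). The IFNAR1 call was also lost without shNTC replicate 1 and that of IL4R without shNTC replicate 2.

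Of 8 measured JAK and STAT genes, 2 rose and 0 fell, with a median of 0.42. STAT3, the factor that SOCS3 restrains and that drives SOCS3 and PIM1, read 11.13 and 11.23 with shEZH2 and 10.36 on both shNTC arrays in KARPAS-422. It read 13.11 with shEZH2 and 13.44 with shNTC in Pfeiffer. It rose by 0.82 in KARPAS-422 (SE 0.09, limma adjusted p = 0.00159), and the difference between lines in the response was 1.14 (SE 0.15, limma adjusted p = 0.0174). JAK1 rose by 0.56 (SE 0.13, limma adjusted p = 0.022), and JAK2 differed by 0.72 without passing (limma adjusted p = 0.0581). The JAK1 call was lost without either shEZH2 array or shNTC replicate 1, with differences of 0.39 to 0.72 and adjusted p up to 0.135 over the left-out arrays, and the STAT3 line difference without either shEZH2 array (1.19 and 1.10, adjusted p = 0.125 and 0.128). In control cells STAT3 and JAK1 were lower in KARPAS-422 than in Pfeiffer, with log2 differences of -3.08 and -3.30.

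Of 16 other negative regulators measured, 3 rose and 1 fell, with a median of 0.04. USP18, which encodes a protease that removes ISG15 and blocks the interferon receptor, read 12.26 and 11.98 with shEZH2 and 7.87 and 8.22 with shNTC in KARPAS-422. In Pfeiffer it read 8.25 with shEZH2 and 8.12 with shNTC. It rose by 4.07 (SE 0.17, limma adjusted p = 4.11e-05). SOCS4 rose by 0.39 (SE 0.10, limma adjusted p = 0.0309) and the phosphatase gene PTPN1 by 0.39 (SE 0.12, limma adjusted p = 0.0491), while the STAT inhibitor gene PIAS2 fell by 0.40 (SE 0.11, limma adjusted p = 0.0403). With single arrays left out the differences ran from 0.31 to 0.47 for SOCS4, 0.32 to 0.47 for PTPN1 and -0.48 to -0.32 for PIAS2, with adjusted p up to 0.154, 0.193 and 0.148. These calls were lost without either shEZH2 array, for SOCS4 also without shNTC replicate 1, for PIAS2 without shNTC replicate 2 and for PTPN1 without either shNTC array. The PTPN1 call held under 2 of 17 alternatives, and the PIAS2 difference was 0.32 as a mean of its probe sets. SOCS5, SOCS6 and SOCS7 differed by -0.17, -0.03 and -0.24, and the phosphatase genes PTPN6 and PTPN11 by -0.33 and -0.05. None of these 5 passed, with limma adjusted p from 0.0647 to 0.988. The SOCS6 value (SE 1.18) cannot show whether it changed, since its signal in KARPAS-422 was 5.52 or lower and it passed the filter through Pfeiffer alone. On its other kept probe sets SOCS5 differed by 0.43 and 0.72, which did not pass either. PTPN6, which encodes the phosphatase SHP-1, was 20.1-fold higher in KARPAS-422 than in Pfeiffer in control cells, and PTPN1 was 10.6-fold higher in Pfeiffer.

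Of 7 measured genes for the ubiquitin ligase that the SOCS box recruits, 1 rose and 2 fell, with a median of -0.11. UBE2F, a conjugating enzyme gene for NEDD8, rose by 0.47 (SE 0.11, limma adjusted p = 0.0215). ARIH2, a ligase partner of CUL5, fell by 0.38 (SE 0.10, limma adjusted p = 0.0327), and ELOB, the elongin B adaptor gene, fell by 0.27 (SE 0.07, limma adjusted p = 0.031). Without any one KARPAS-422 array the ARIH2 and ELOB calls were lost, at -0.38 to -0.37 (adjusted p = 0.0808 to 0.124) and -0.28 to -0.26 (adjusted p = 0.0951 to 0.129). The UBE2F call was kept only without shNTC replicate 1, over a range of 0.36 to 0.57 (adjusted p = 0.0182 to 0.121).

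**Figure D4:**
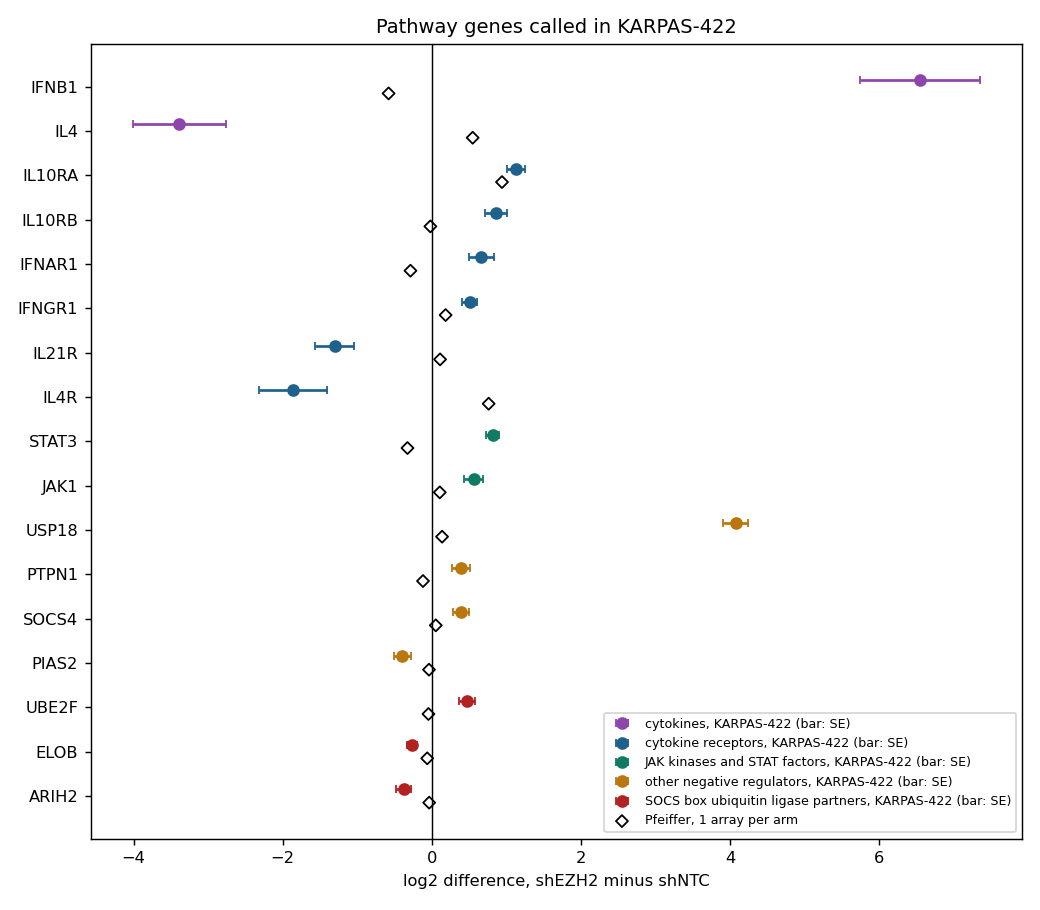
Log2 difference, shEZH2 minus shNTC (horizontal axis), for the pathway genes called in KARPAS-422, coloured by list (bars, SE of the limma fit, n = 2 per arm), with the Pfeiffer difference (1 array per arm) as open diamonds. IFNB1 and USP18 lie farthest right in KARPAS-422, at 6.54 and 4.07, and their Pfeiffer differences lie at -0.58 and 0.14.

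Among interferon-induced genes, IFIT2 rose in KARPAS-422 by 4.49 (SE 0.20), IFIT1 by 3.09 (SE 0.16), the guanylate-binding protein gene GBP1 by 2.86 (SE 0.49) and IFIT3 by 2.78 (SE 0.11). GBP1 passed the filter only through the KARPAS-422 shEZH2 arrays, where it was high, and its control signal was below the median of all values. Of 17 measured STAT3, STAT5 and STAT6 target genes, 0 were called with limma, and the median was -0.16. An unadjusted limma p under 0.05 was found for 4 of the 17, while 25.4% of all genes passed even the adjusted threshold. The smallest p-values were those of VEGFA, at -1.36 (SE 0.44, limma adjusted p = 0.0609), and NFIL3, at -0.42 (SE 0.14, limma adjusted p = 0.0676). Without shNTC replicate 2 VEGFA was called (-2.13, adjusted p = 0.000221), and without either shEZH2 array GBP1 was not (2.64 and 3.08, adjusted p = 0.0972 and 0.0672).

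Of 14 measured PIM relatives and substrates, 3 rose and 1 fell, with a median of -0.02. The chemokine receptor gene CXCR4 read 8.82 and 8.89 with shEZH2 and 6.37 and 6.62 with shNTC in KARPAS-422, against 13.38 with shEZH2 and 13.42 with shNTC in Pfeiffer. It rose by 2.36 in KARPAS-422 (SE 0.14, limma adjusted p = 0.000127). The forkhead factor genes FOXO3 and FOXO1 rose by 1.05 (SE 0.13) and 1.01 (SE 0.15), and the translation factor gene EIF4B fell by 1.02 (SE 0.08, limma adjusted p = 0.000575). With the first shEZH2 array of KARPAS-422 left out, FOXO1 no longer passed (0.85, adjusted p = 0.0529).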

How the data were processed

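The deposited table holds log2 signals for 54675 probe sets, which the authors made with MAS5, per the submitters' processing notes. The version and the scaling target were not given in the sources used here. Taken as log2, every array had the same 2% trimmed mean of 500 on the linear scale, so each array had been scaled on its own. No detection calls or scan dates were used here, so no batch could be tested, and dim MAS5 signals spread widely on the log scale. The number of arrays limits the precision.

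Probe sets with 1 annotated gene symbol were used if at least 2 of 6 arrays exceeded the median of all values (6.21). The probe set with the brightest mean among those kept stood for its gene, and no pseudocount was added. Two-sided tests were run with lmFit and eBayes (trend option on) of limma 3.58.1, under R 4.3.3, on a model of 4 groups over 6 arrays, with Benjamini-Hochberg adjustment over all 13036 genes (or 25186 probe sets) and a threshold of 0.05. With 1 array per Pfeiffer group, the spread came from KARPAS-422 (2 residual and 5.24 prior degrees of freedom). The line was a covariate in the fit over both lines, which left 3 residual degrees. No test was made within Pfeiffer, and differences past 1 log2 unit are counted as a description.

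The genes and lists were chosen with earlier results of these data known. EZH2, the 7 genes, SOCS4 to SOCS7, PIM3, PTPN1, PTPN6 and PTPN11 were always named. Of each pathway list, up to 4 called genes per direction in KARPAS-422 with the largest difference were named, or the 2 with the smallest p where none was called. The whole-list result of 1 pathway list is not reported here. For each of the 7 genes called in KARPAS-422 the 2 nearest profiles were named, passing over immunoglobulin segments and genes with provisional or class symbols. JAK2, MS4A1, PAX5, EBF1, CD22, CD79A, CD79B, CD3D, CD3E, CD3G, EPCAM, DCN, KRT8, KRT18, COL1A1 and COL1A2 were named after their values were seen. The correlation of the replicate 1 minus replicate 2 differences between the KARPAS-422 arms was 0.0065 over 13036 genes, so the replicate numbers were not taken to pair the arrays. Motifs were searched with Python 3.11.15. Scripts were tested on simulated data. Alternatives were other scalings, added constants, filters, probe set rules, variance models and left-out arrays.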

Additional observations from a re-analysis of the deposited data

Results flagged for a closer look

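In 8 of the feedback and pathway genes named above the response to shEZH2 differed between the lines by a test of the difference itself. That difference was KARPAS-422 minus Pfeiffer, and the single Pfeiffer arrays were assumed to vary like those of KARPAS-422. The B-cell genes CD79A and CD79B, not among the 8, also passed. CD79A differed by -1.05 (SE 0.16, limma adjusted p = 0.0271) and CD79B by 0.82 (SE 0.15, limma adjusted p = 0.047). Over all genes tested, 222 of 13036 (1.7%) passed that test. For SOCS1 the log2 difference was 2.84 in KARPAS-422 and 0.27 in Pfeiffer, so that the lines differed by 2.56 (SE 0.34, limma adjusted p = 0.0172). USP18 differed between lines by 3.94 (SE 0.30, limma adjusted p = 0.00393), with 4.07 in KARPAS-422 and 0.14 in Pfeiffer. STAT3 differed by 1.14 (SE 0.15, limma adjusted p = 0.0174), with 0.82 in KARPAS-422 and -0.33 in Pfeiffer. Among interferon-induced genes the line difference was 2.42 for IFIT1 (SE 0.28, limma adjusted p = 0.01), 3.04 for IFIT2 (SE 0.34, limma adjusted p = 0.0086) and 2.11 for IFIT3 (SE 0.19, limma adjusted p = 0.00444). Their Pfeiffer differences were 0.68, 1.46 and 0.67. CXCR4 differed between lines by 2.40 (SE 0.24, limma adjusted p = 0.00521) and EIF4B by -1.07 (SE 0.15, limma adjusted p = 0.0189). Both were near 0 in Pfeiffer, at -0.05 for CXCR4 and 0.05 for EIF4B. Without shEZH2 replicate 1 or 2 of KARPAS-422, or with no intensity trend in the variance, all 8 line differences kept their sign and none passed. Over the 4 left-out arrays they ran from 2.29 to 2.84 for SOCS1 (highest adjusted p = 0.175), 3.76 to 4.11 for USP18 (0.116), 1.10 to 1.19 for STAT3 (0.128), 2.30 to 2.53 for IFIT1 (0.175), 2.86 to 3.21 for IFIT2 (0.15), 2.06 to 2.16 for IFIT3 (0.116), 2.28 to 2.53 for CXCR4 (0.116) and -1.14 to -0.99 for EIF4B (0.14).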

How the results depend on the processing

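The SOCS1 call in KARPAS-422 was kept under all 16 alternatives that gave a value, at differences of 2.46 to 3.11, and SOCS1 had no probe set left without the _x_at and _s_at probe sets. Without those probe sets, 0 of the measured genes were called higher in KARPAS-422 and 2 lower, since SOCS3 was then read by 227697_at (-2.16, adjusted p = 0.0349). The PIM1 call was kept under 14 of 17 alternatives. The count of genes called lower in KARPAS-422 was 0 without the intensity trend, and 0 to 1 with single arrays left out. Over both lines 0 genes were called higher with quantile or cyclic loess normalization, no filter, the mean of probe sets, no _x_at and _s_at probe sets, each probe set on its own, no intensity trend, or any single array left out, at adjusted p for SOCS1 of 0.0513 to 0.214. With the replicate number as a block the count over both lines was also 0 (1.98, adjusted p = 0.102), and the block changed no other call among the 6 genes. In KARPAS-422 it ended the call of PTPN1 (adjusted p = 0.0573) and made one of VEGFA (0.0437). For the difference between lines 0 were called without those probe sets or without the trend (adjusted p = 0.164), and 0 to 1 with single arrays left out. Between lines in control cells 2 genes were called higher after quantile normalization or median centring and 1 to 2 with single arrays left out, SOCS1 being the second (0.77, 0.79 and 0.87). Median centring moved the median of all genes by 0.20 there and by -0.12 in Pfeiffer. In Pfeiffer 1 gene lay past 1 log2 unit higher with the mean of probe sets (CISH, 2.10), and 1 lower with 64 added, the mean of probe sets or no _x_at and _s_at probe sets (SOCS3, -1.55, -1.20 and -1.61). The SOCS1 difference in Pfeiffer was -0.28 with the mean of probe sets.

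The differences that changed sign were uncalled as reported, except that of PIAS2 in KARPAS-422. In KARPAS-422 the mean of probe sets gave 0.17 for CISH, 0.33 for SOCS5, 0.51 for SOCS6 and 0.32 for PIAS2, the last after a call. Median centring gave -0.048 for PTPN2 and -0.0049 for PIM3. PTPN11 was 0.091 with quantile and 0.11 with cyclic loess normalization. Leaving out single arrays gave -0.26 to 0.17 for CISH, -0.38 to 0.070 for PIM2, -0.060 to 0.081 for PTPN2, -1.79 to 1.72 for SOCS6 and -0.098 to 0.20 for PIM3. Over both lines PTPN2 was -0.0048 with median centring. For the difference between lines, SOCS3 was -0.0050 with cyclic loess, -0.55 without _x_at and _s_at probe sets, and -0.11 to 0.16 without single arrays. PIM2 was -0.093 with quantile normalization and -0.12 to 0.33 without single arrays, and PTPN2 was 0.30 with the mean of probe sets. Between lines CISH was 1.10 with the mean of probe sets (adjusted p = 0.0601). The cause of these shifts was not tested.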
